A study of Homo sapiens with 2 samples.

Results

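The tight junction and desmosome genes *CLDN1*, *CLDN3*, *CLDN5*, *CLDN7*, *DSP* and *DSG2*, the keratin gene *KRT80* and the junctional adhesion gene *VSIG1* were examined in the established colon cancer line HT29. The cells had been transfected with a control siRNA (siControl) or with an siRNA against *REG4* (siREG4), which encodes a secreted lectin. These 8 genes, out of 14812 genes with a named probe set, were chosen by their differences between the 2 arrays, so their differences are given as a description and no test was applied to them. There was 1 array per group, no spread between replicates could be measured, and no difference below has a replicate check. The treatment label of the siREG4 array names GATA6, in conflict with its title and source name, which name REG4. The array was taken by its title. No probe set named *REG4* was analysed here, so the knockdown itself was not checked, and *GATA6* differed by 0.07 on the log2 scale. The sources used here give neither the time after transfection nor which of the *REG4* siRNAs of the study was on the array.

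Epithelial cells are sealed and held together by several kinds of junction. Tight junctions lie near the apical border, where claudins, a family of small membrane proteins that span the membrane repeatedly, join across the gap between cells and either close it or leave pores for selected ions. Desmosomes lie below them and bear mechanical load: desmogleins and desmocollins, which are cadherins, bind the next cell, plakoglobin and plakophilins bind the cadherin tails, and desmoplakin ties the complex to keratin filaments.

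The deposited values are on a log scale, taken here as log2, and had been centred for each probe set between the 2 arrays. A value therefore shows on which array a gene was brighter and holds no signal level, and whether a gene was expressed at all, or more strongly than another gene, cannot be read from it. Differences are siREG4 minus siControl. As in the methods of the study, a 1.4-fold difference (0.49 on the log2 scale) served as the threshold, here in both directions. At this threshold 1.51% of all named genes were higher and 1.67% were lower in the siREG4 array. Among the 8 junction genes 5 were higher, 2 were lower and 1 lay within the threshold, a split that follows from how they were chosen. A bulk RNA measurement cannot tell fewer cells of a kind from less RNA per cell.

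The chosen claudins went in opposite directions. *CLDN1*, which encodes a claudin that closes the space between cells and is needed for the barrier of the skin, had a value of -0.35 in the siControl array and 0.35 in the siREG4 array. It was thus brighter after *REG4* siRNA, by 0.70 on the log2 scale or 1.62-fold. *CLDN3*, another sealing claudin of the gut, had 0.32 in the siControl array and -0.32 in the siREG4 array. This is a difference of -0.64, or 1.56-fold lower after *REG4* siRNA. *CLDN7*, which is found in the gut both at tight junctions and along the lateral membrane, had 0.26 in the siControl array and -0.26 in the siREG4 array. It was 1.42-fold lower (-0.51), only just past the threshold. *CLDN5*, the main claudin of blood vessel endothelium, had 0.02 and -0.02 in the same order. Its difference of -0.05 left it within the threshold, and 40.55% of all named genes differed by less in size.

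Relative to *CLDN3*, *CLDN1* differed by 1.34 on the log2 scale between the arrays, a 2.53-fold difference in the ratio of the pair. Relative to *CLDN7* the difference was 1.21 (2.31-fold). *CLDN3* and *CLDN7* lay 0.13 apart. A single array per group gives no error for these comparisons.

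The desmosome genes of the set were both brighter in the siREG4 array. *DSP*, which encodes desmoplakin, had -0.31 in the siControl array and 0.31 in the siREG4 array. Its difference was 0.62, or 1.54-fold. *DSG2*, the desmoglein of simple epithelia such as the colon, had -0.25 in the siControl array and 0.25 in the siREG4 array. It was 1.42-fold higher (0.50) and, like *CLDN7*, close to the threshold. *KRT80*, a type II keratin of epithelial cells, had -0.37 and 0.37, a difference of 0.73 or 1.66-fold. *DSP*, *CLDN1* and *KRT80* thus lay within 0.11 of each other.

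*VSIG1*, an immunoglobulin-type adhesion protein made in stomach epithelium, stood far from the other genes of the set. It had -0.84 in the siControl array and 0.84 in the siREG4 array. Its difference of 1.68 (3.22-fold) ranked 1 of 14812 genes from the top, while *KRT80* ranked 70, *CLDN1* 85, *DSP* 112 and *DSG2* 203. From the bottom, *CLDN3* ranked 90 and *CLDN7* ranked 208. Each of the 8 genes was measured by 1 probe set, so no second probe set could be set against these values.

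**Figure D1:**
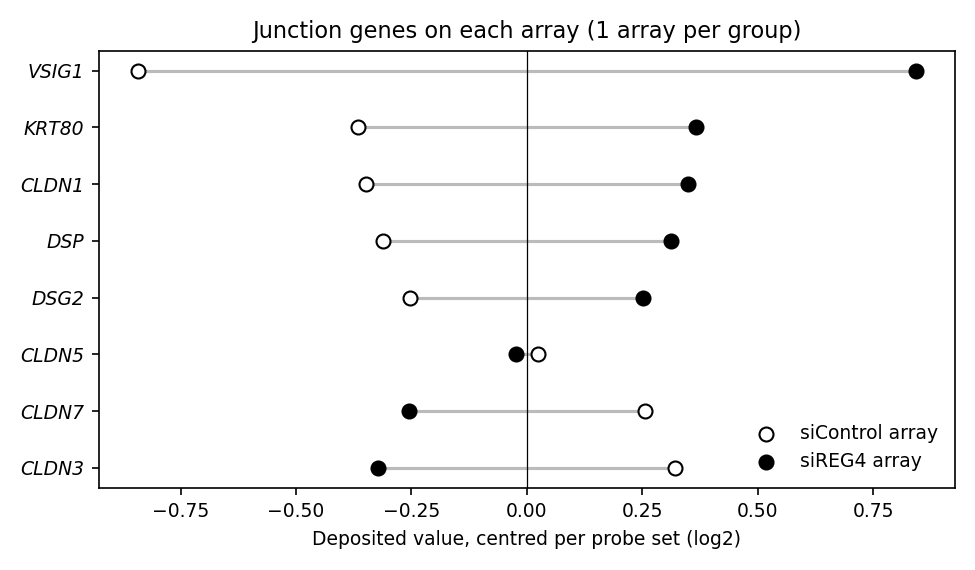
Value of each gene on the siControl array (open circles) and the siREG4 array (filled circles), in log2 units centred per probe set, 1 array per group. The filled circle lies to the right for 5 genes, furthest for *VSIG1* (0.84), and to the left for *CLDN3*, *CLDN7* and, by a small margin, *CLDN5*.

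**Figure D2:**
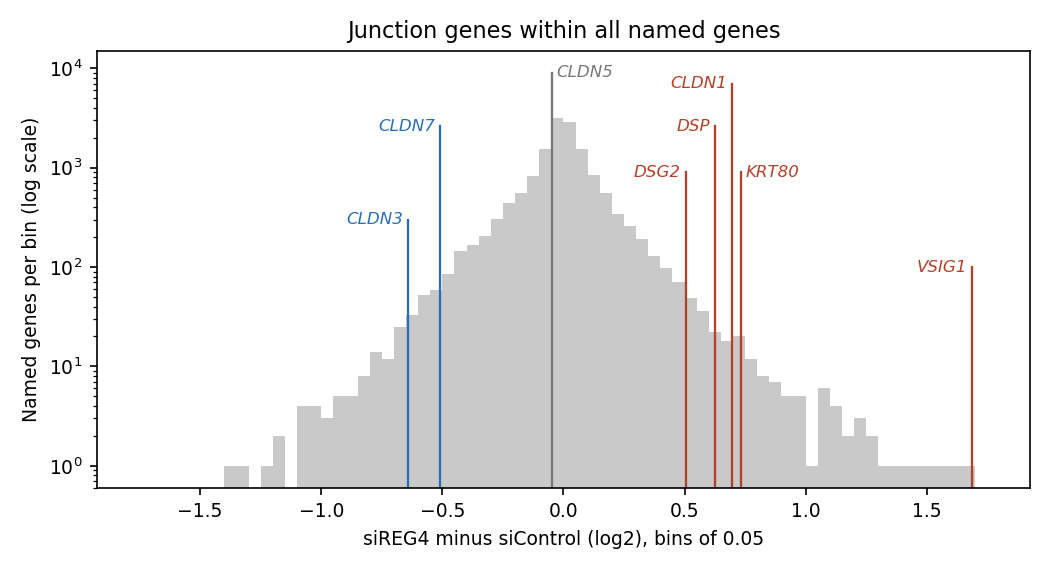
Number of named genes in each 0.05-wide bin of the difference (siREG4 minus siControl, log2), on a logarithmic count axis, with a vertical line for each of the 8 genes (red, higher and blue, lower past 1.4-fold; grey, within it; line heights only separate the labels). *CLDN5* (-0.05) lies in the central peak, the other 7 genes lie in the tails and *VSIG1* (1.68) lies at the right edge.

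The sequences just before the transcription starts are shown for the genes that differed in opposite directions and have an entry in the RefSeq promoter table (build GRCh38.p14). Of the 8 genes 5 matched this table by symbol, and *CLDN5*, *KRT80* and *VSIG1* did not. Each line gives the 250 bases before the start, 5′ to 3′ on the strand of the gene. Capitals mark CACCTG and its reverse complement CAGGTG, E-box letters that SNAI and ZEB repressors of epithelial genes are known to bind. *CLDN7* has another start in the table, whose sequence is not shown.
CLDN1 (chr3:190322447-190322696, minus strand): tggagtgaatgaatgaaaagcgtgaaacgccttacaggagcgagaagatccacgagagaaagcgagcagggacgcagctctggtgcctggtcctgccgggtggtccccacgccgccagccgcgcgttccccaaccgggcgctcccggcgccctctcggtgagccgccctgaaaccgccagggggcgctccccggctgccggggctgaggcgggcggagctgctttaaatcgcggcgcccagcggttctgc
CLDN3 (chr7:73770271-73770520, minus strand): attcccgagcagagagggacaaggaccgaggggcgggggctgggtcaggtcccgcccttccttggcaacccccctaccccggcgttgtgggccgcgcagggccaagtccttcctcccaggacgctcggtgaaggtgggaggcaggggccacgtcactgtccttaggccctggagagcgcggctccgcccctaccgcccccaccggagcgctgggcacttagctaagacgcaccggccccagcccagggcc
CLDN7 (chr17:7262479-7262728, minus strand): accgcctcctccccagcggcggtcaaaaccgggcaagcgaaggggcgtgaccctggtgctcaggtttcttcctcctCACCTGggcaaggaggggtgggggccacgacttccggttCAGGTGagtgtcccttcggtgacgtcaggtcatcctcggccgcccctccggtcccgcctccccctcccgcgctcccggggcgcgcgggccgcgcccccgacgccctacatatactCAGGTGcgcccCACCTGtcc
DSP (chr6:7541421-7541670, plus strand): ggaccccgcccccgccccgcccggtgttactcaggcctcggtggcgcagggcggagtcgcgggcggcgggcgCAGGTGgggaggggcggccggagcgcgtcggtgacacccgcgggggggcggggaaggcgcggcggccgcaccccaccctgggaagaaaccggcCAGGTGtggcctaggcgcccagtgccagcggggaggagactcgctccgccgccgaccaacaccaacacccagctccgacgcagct
DSG2 (chr18:31497927-31498176, plus strand): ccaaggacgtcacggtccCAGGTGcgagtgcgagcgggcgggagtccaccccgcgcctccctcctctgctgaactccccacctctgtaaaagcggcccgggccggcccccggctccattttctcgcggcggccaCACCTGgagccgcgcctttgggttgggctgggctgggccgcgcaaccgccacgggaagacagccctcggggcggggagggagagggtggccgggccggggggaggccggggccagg

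Searched on both strands, these E-box letters occurred 4 times before the start shown for *CLDN7*, 2 times each before *DSP* and *DSG2*, and 0 times before *CLDN1*, *CLDN3* and the other start of *CLDN7*. Among 34943 promoter windows of the same length, 17.5% held at least 1 such match, 2.53% held 2 or more and 0.12% held 4 or more. Matches thus occurred before a gene that was lower (*CLDN7*) and before genes that were higher (*DSP* and *DSG2*) in the siREG4 array. The letters AGATAA or AGATAG or TGATAA or TGATAG, which GATA factors bind, had 0 matches on either strand in the windows of these 5 genes, against 22.4% of all windows with a match. The GC box letters GGGCGG, known for binding SP factors, matched 7 times before *DSP*, 4 times before *CLDN3* 2 times each before *CLDN1* and *DSG2*, 1 time before the start shown for *CLDN7* and 0 times before its other start, and 42.5% of all windows held a match. The G and C content was 68.8% before *CLDN1*, 71.6% before *CLDN3*, 78.0% before *DSP* and 75.2% before *DSG2*. It was 71.2% before the start shown for *CLDN7* and 60.4% before its other start. The median over all windows was 58.0%, which the other start of *CLDN7* exceeded by little. A match is a description of the letters and not a bound site.

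The whole claudin family was then compared. All 26 listed claudins and claudin domain genes had a named probe set, and *CLDN1* was the single one higher and *CLDN3* and *CLDN7* the only ones lower past 1.4-fold, and these 3 had been chosen for their differences. The other 22 claudin genes, with *CLDN5* also set aside, had 0 past the threshold (3.19% of all named genes) and a median of -0.0025. Of these, 20 lay within 0.1 of 0, against 61.94% of all named genes. The exceptions were *CLDN2*, a claudin that forms a pore for cations, with 0.16 in the siControl array and -0.16 in the siREG4 array (-0.32), and *CLDN23* at -0.15. The highest of these 22 were *CLDN14* (0.08) and *CLDN4* (0.06). *CLDN15*, another cation pore former of the intestine, was at 0.01, and *CLDN18*, a claudin of stomach and lung, at -0.08. All the claudins that differed by more than 0.1 were thus lower, except *CLDN1*.

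The size of these values can be read beside genes taken as silent in colon cells. The 84 keratin-associated protein (*KRTAP*) genes, which are hair genes, ran from *KRTAP10-9* (-0.22) and *KRTAP10-10* (-0.22) to *KRTAP5-9* (0.27) and *KRTAP5-1* (0.30), with an SD across genes of 0.09, and 0 of them passed 1.4-fold. In the claudin family 4 genes lay outside this range, *CLDN1*, *CLDN3*, *CLDN7* and *CLDN2*, of which 3 had been chosen for their differences. This was 15.38% of the family, close to the 13.99% of all named genes that lay outside it. *CLDN5* lay inside it. The *KRTAP* genes were chosen as a gauge with their values known and are taken to be silent, which these values cannot show.

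**Figure D3:**
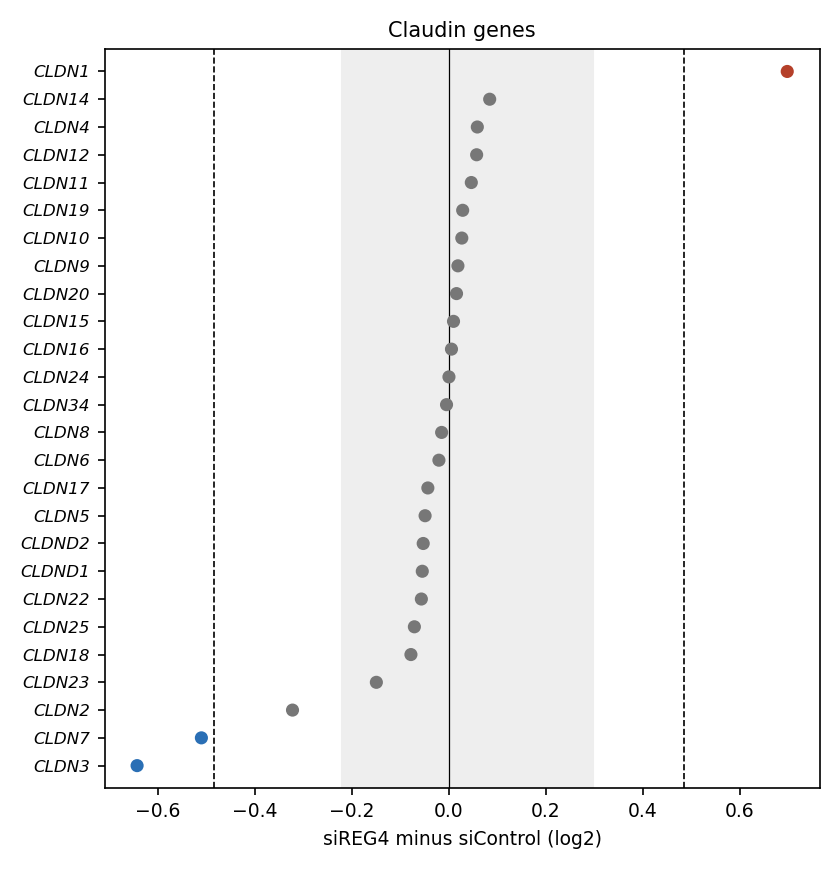
Difference between the arrays (siREG4 minus siControl, log2) for 26 claudin and claudin domain genes, 1 point per gene. Dashed lines mark 1.4-fold and the grey band the range of the *KRTAP* genes (-0.22 to 0.30). *CLDN1* lies alone on the right, *CLDN3* and *CLDN7* on the left, and 21 genes (80.77%) lie within 0.1 of 0, against 61.94% of all named genes.

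Genes for other proteins of the tight junction were also measured. Of 31 listed genes for partners and scaffolds of claudins 24 were measured, with a median of -0.01. In either direction 0 passed 1.4-fold (3.19% of all named genes). Occludin (*OCLN*), a membrane protein that lies beside claudins in the strands, had 0.22 in the siControl array and -0.22 in the siREG4 array. Its difference of -0.44 (1.36-fold lower) was the largest in this list and fell short of the threshold. Next came *CTTN*, which encodes the actin-binding cortactin (-0.33). At the upper end were *ILDR1* (0.21), a protein of corners where 3 cells meet, and the polarity protein gene *CRB3* (0.30). The scaffold gene *TJP1*, which encodes ZO-1, was at -0.0015.

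The desmosome list held 14 genes, of which 13 were measured. The median of the 13 was -0.01. Those past 1.4-fold were *DSP* and *DSG2*, which had been chosen for their differences, and of the other 11 genes 0 were higher (1.51% of all named genes) and 0 were lower. *JUP*, which encodes plakoglobin, the link between the desmosomal cadherins and desmoplakin, had -0.23 in the siControl array and 0.23 in the siREG4 array. At 0.45 (1.37-fold) it lay just short of the threshold. *DSC2*, the desmocollin of simple epithelia, had -0.07 and 0.07 (0.14). The plakophilins, which anchor desmoplakin at the plaque, lay between -0.27 and 0.02: *PKP2* was at -0.27, *PKP4* at -0.20, *PKP3* at -0.09 and *PKP1* at 0.02. The desmosomal cadherins of stratified epithelium, *DSG1*, *DSG3*, *DSG4*, *DSC1* and *DSC3*, lay between -0.04 and 0.02.

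Relatives of desmoplakin and genes of the cornified envelope were examined next, in a list set up with these data known. Of 15 measured genes out of 16 listed, 2 were higher past 1.4-fold (1.51% of all named genes), 0 were lower (1.67% of all named genes), and the median was 0.08, against 0.0 over all named genes. *SCEL*, which encodes sciellin, an envelope precursor, had -0.48 in the siControl array and 0.48 in the siREG4 array (0.96, 1.95-fold). *PPL*, which encodes periplakin, a plakin that links keratin filaments to desmosomes and the envelope, had -0.36 and 0.36 (0.72, 1.65-fold). Envoplakin (*EVPL*), the partner of periplakin, was lower instead, with 0.14 in the siControl array and -0.14 in the siREG4 array (-0.28). The cytoskeletal linkers *MACF1* (0.44), *PLEC* (0.33), *DST* (0.25) and *EPPK1* (0.25) lay above 0 and short of the threshold. The small proline-rich genes differed from each other, with *SPRR1A* at 0.30, *SPRR3* at 0.03, *SPRR1B* at -0.01 and *SPRR2A* at -0.30. The envelope genes *IVL* (0.01), *CSTA* (0.0043) and *CDSN* (-0.0023, the mean of 4 probe sets between -0.05 and 0.13) lay close to 0.

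Keratins build the filaments to which desmosomes attach. Of 28 listed epithelial keratins 25 were measured, with a median of 0.035. Besides *KRT80*, which had been chosen for its difference, 1 of 24 was higher past 1.4-fold (1.51% of all named genes), *KRT20*, and 0 were lower. *KRT20*, a keratin of the upper crypt and surface cells of the colon, had -0.27 in the siControl array and 0.27 in the siREG4 array (0.54, 1.46-fold). *KRT19* was at 0.24. The main keratin pair of simple epithelia, *KRT8* (-0.08) and *KRT18* (0.0042, with its 2 probe sets between -0.02 and 0.03), differed little, and *KRT8* was the lowest of the list. *KRT6C* was at -0.06. Of 22 hair and root sheath keratins 0 passed the threshold, from *KRT32* (-0.11) and *KRT33B* (-0.08) to *KRT37* (0.21) and *KRT31* (0.30).

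**Figure D4:**
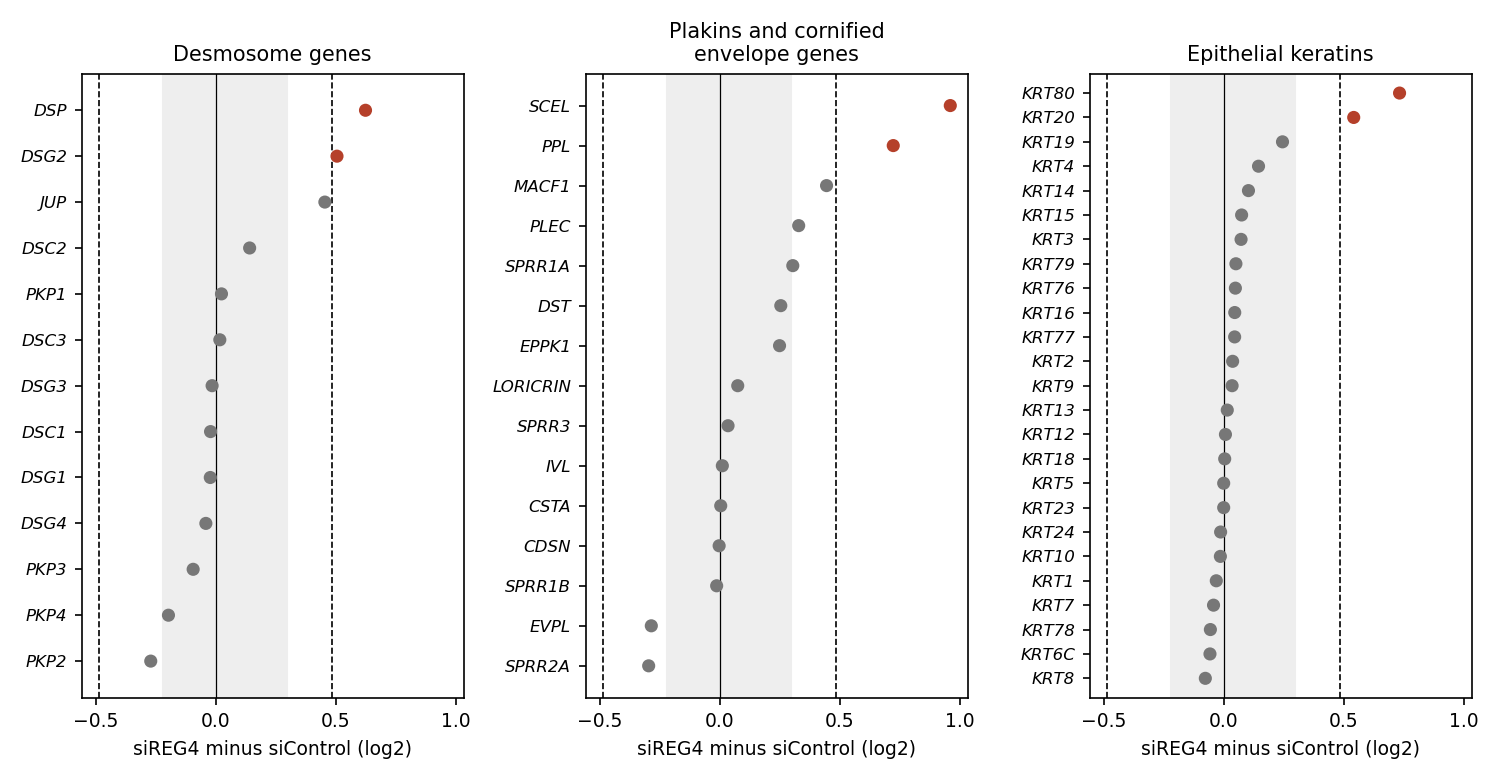
Difference between the arrays (siREG4 minus siControl, log2) for 13 desmosome genes, 15 plakin and cornified envelope genes and 25 epithelial keratins, 1 point per gene, with 1.4-fold as dashed lines and the range of the *KRTAP* genes in grey. Red points are past 1.4-fold: *DSP* and *DSG2*, *SCEL* and *PPL*, and *KRT80* and *KRT20*.

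*VSIG1* was set beside other immunoglobulin-type and related adhesion genes. Of 20 listed genes 15 were measured, with a median of 0.0. Without *VSIG1*, which had been chosen for its difference, 2 of 14 were higher past 1.4-fold (1.51% of all named genes) and 0 were lower. *BCAM*, a laminin receptor of the same superfamily, had -0.28 in the siControl array and 0.28 in the siREG4 array (0.56, 1.47-fold). *CADM4*, a cell adhesion molecule, had -0.25 and 0.25 (0.51, 1.42-fold). The gene *VSIG2*, which like *VSIG1* carries immunoglobulin domains, was at -0.17 and *VSIG10L* at -0.17, and *VSIG4* (0.06), *VSIG8* (0.03) and *VSIG10* (0.05) lay close to 0. The junctional adhesion genes *JAM2* (-0.04) and *JAM3* (-0.01) and the epithelial adhesion gene *EPCAM* (-0.05) also lay within 0.1 of 0.

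Since *VSIG1* and *CLDN18* belong to the stomach, gastric genes were compared. Of 7 measured markers out of 9 listed, *VSIG1* and *ANXA10*, a gastric annexin, were higher past 1.4-fold (1.51% of all named genes). Of these, *VSIG1* had been chosen for its difference. *ANXA10* had -0.34 in the siControl array and 0.34 in the siREG4 array (0.68, 1.60-fold). The trefoil factor genes *TFF1* (-0.04) and *TFF2* (0.02), the gastrokine genes *GKN1* (-0.01) and *GKN2* (-0.01) and *CLDN18* lay within 0.1 of 0. Markers of other cell types were also compared. For endothelium, 5 of 9 listed markers were measured and ran from *ESAM* (-0.09) and *CLDN5* to *TIE1* (-0.03) and *VWF* (0.01). The 8 measured squamous markers ran from *DSG3* (-0.01) and *KRT5* (0.0) to *KRT14* (0.10) and *KRT4* (0.14), and the 4 measured fibroblast markers from *DCN* (-0.03) and *THY1* (0.0016) to *VIM* (0.0058) and *LUM* (0.03). Of 9 measured colon epithelium markers, 6 (66.67%) lay within 0.1 of 0, near the 61.94% of all named genes. Only *KRT20* was higher past 1.4-fold (1.51% of all named genes), and *CDX2* (-0.26) was the lowest. As the values hold no level, the cell type could not be checked against these markers.

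Adherens junctions, gap junctions and hemidesmosomes were covered less well. Of 22 listed adherens junction genes 7 were measured and 0 passed 1.4-fold in either direction (3.19% of all named genes). The median was -0.13 and 5 of the 7 lay below 0. These were *NECTIN3* (-0.37), *LIMA1* (-0.32), *VCL*, which encodes vinculin (-0.19), *PVR* (-0.13) and *NECTIN1* (-0.11). *NECTIN2* was at 0.0015 and *NECTIN4* at 0.14. Only 2 of 20 listed gap junction genes were measured, and 1 was higher past 1.4-fold (1.51% of all named genes). This was *PANX1*, a channel protein related to gap junction proteins of invertebrates, at 0.60 (1.51-fold higher). *PANX2* was at -0.16. *CD151*, a tetraspanin and the only 1 of 7 listed hemidesmosome genes that was measured, was at -0.15.

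Of the measured transcription factors known to control junction genes, 68.42% lay within 0.1 of 0, against 61.94% of all named genes. Of 19 measured out of 24 listed, 0 passed 1.4-fold in either direction (3.19% of all named genes), with a median of -0.01. *GRHL3*, a grainyhead-like activator of the epidermal barrier, was the highest (0.38), followed by *GRHL1* (0.13), an activator of desmosomal cadherin genes. The epithelial ETS factor *EHF* (-0.40) and the intestinal factor *CDX2* (-0.26) were the lowest. Of the repressors that bind E-boxes, *SNAI1* was at -0.08, *SNAI2* at 0.02, *ZEB1* at 0.0 and *ZEB2* at -0.01.

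Several of these genes lie in clusters, which allows a comparison with their neighbours. *CLDN3* and *CLDN4* are next to each other on chromosome 7, and *CLDN3* was at -0.64 whereas *CLDN4* was at 0.06. *CLDN1* and *CLDN16* are next to each other among the measured genes of chromosome 3, at 0.70 and 0.01. In the desmoglein cluster of chromosome 18, *DSG2* was at 0.50 beside *DSG3* (-0.01), *DSG4* (-0.04) and *DSG1* (-0.02) on one side and the antisense gene *DSG2-AS1* (-0.04) on the other. At *KRT80* on chromosome 12, the nearest measured keratin was *KRT7* (-0.04). Of the 48 measured genes that lay among the nearest 3 on either side, 2 passed 1.4-fold in either direction, as did 3.19% of all named genes. These were *GABARAP*, an autophagy gene near *CLDN7* that was at 0.50, the opposite direction, and *PRPS1*, a nucleotide synthesis gene near *VSIG1* at -0.67, also opposite. Close to *DSP*, the kinase gene *RIOK1* was at 0.37 and lay short of the threshold. Only these 2 neighbours, *GABARAP* and *PRPS1*, thus passed 1.4-fold, each opposite to the chosen gene near it. Short of the threshold, neighbours went both ways, such as *METTL27* (-0.30) and *STX1A* (0.33) near *CLDN3*. Whether neighbours share a direction was not tested.

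**Figure D5:**
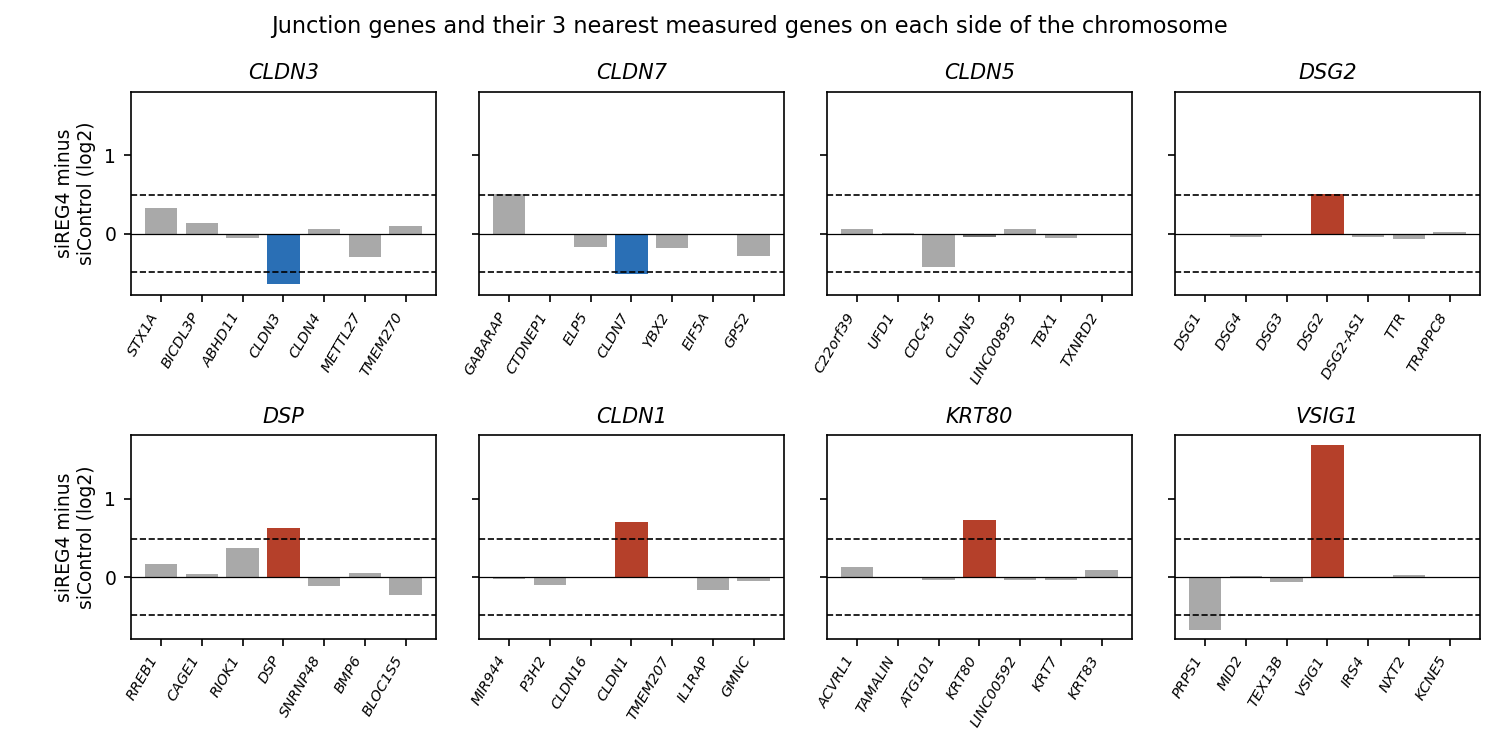
Difference between the arrays (siREG4 minus siControl, log2) for each of the 8 genes (central bar; red, higher and blue, lower past 1.4-fold; dark grey, within it) and its 3 nearest measured genes on each side (light grey), in the order of gene starts in RefSeq. Dashed lines mark 1.4-fold, which among the neighbours *GABARAP* (0.50) and *PRPS1* (-0.67) pass.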

How the data were processed

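Total RNA of HT29 cells was run on Human Gene 2.0 ST arrays (Affymetrix) and evaluated with GeneSpring by the authors. They deposited 1 table of log values, taken here as log2, for 44629 probe sets and 2 arrays, centred per probe set: the columns sum to 0 within 1e-06. For the log base, background correction, summarization and normalization between arrays: not given in the sources used here. A platform annotation named 15835 probe sets with 1 gene symbol each and none with several; 28794 were unnamed here. Probe sets of a gene were averaged, giving 14812 genes. Former symbols in gene lists were read as current ones through RefSeq (GRCh38.p14), which also gave the order of genes. The threshold was 1.4-fold. With 1 array per group there is no test, SD between replicates or interval, and precision is limited by the number of arrays. The 8 genes and all lists were chosen with earlier results of these data known. From each list, genes past 1.4-fold and the 2 lowest and 2 highest were named; other genes were named after their values were seen. The averaging, counting and normalization steps were tested on simulated data. Alternatives were quantile normalization, median centring, the probe set with the smallest difference, other thresholds, protein-coding genes only, probe sets at 0 left out and the mean of a list. Python 3.11.15, numpy 2.4.6, pandas 2.3.3 and matplotlib 3.10.9 were used.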

Additional observations from a re-analysis of the deposited data

How the results depend on the processing

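No paired analysis was possible because each group has 1 array. A 2-fold threshold left 1 of the 8 genes higher (*VSIG1*) and 0 lower, in place of 5 and 2, and 26 higher and 13 lower of all named genes, in place of 224 and 248, as a stricter threshold must. With the limits of the *KRTAP* genes as threshold, an alternative chosen after the data were seen, 5 and 2 of the 8 genes were past it. These limits are narrower than 1.4-fold, so the counts could not fall. Of all named genes, 13.99% lay outside these limits. Counts over protein-coding genes alone were 200 and 243, and after quantile normalization, a count also added after the data were seen, 230 and 239. On columns that mirror each other, quantile normalization draws the upper and lower tails together. All 24 recomputed differences of the 8 genes kept their sign and moved by at most 0.04. Median centring and the choice of probe set could move none of them, since both array medians were 0.0 and each gene had 1 probe set. Of 34 recomputed list medians 30 moved by less than 0.09, the SD across *KRTAP* genes, and 4 moved further, each with the mean in place of the median: desmosome genes to 0.09 (from -0.01), plakin and envelope genes to 0.19, immunoglobulin-type genes to 0.15 and gastric markers to 0.32.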
